A study of Mus musculus with 10 samples.

Results

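Oxidative phosphorylation rests on 5 protein complexes of the inner mitochondrial membrane, and the genes that encode their subunits were followed here in Neuro-2a cells after knockdown of Sfpq. Neuro-2a is a mouse neuroblastoma line, and Sfpq is a nuclear protein that binds RNA and DNA. Members were chosen by symbol: Nduf genes (complex I and its assembly factors), Sdha to Sdhd (complex II), Uqcr genes and Cyc1 (complex III), Cox4 to Cox8 genes (complex IV) and Atp5 genes (complex V). The rule found 95 of the 23553 genes in the tables. They were 7 core subunits, 32 accessory subunits and 8 assembly factors of complex I, 4 genes of complex II, 9 of complex III, 18 of complex IV and 17 of complex V. Of these, 91 reached a mean of 0.5 RPKM in poly(A) RNA and were tested. The unit RPKM corrects the reads of a transcript for its length and for the library's total. The other 4 were Ndufa4l2, Cox6b2, Cox8b and Cox8c.

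Control cells (Luc) received a small interfering RNA against luciferase, and knockdown cells (Sfpq) one against mouse Sfpq, both with the reagent RNAiMAX in medium with 2% serum, a setting that the labels call differentiated. Both groups are the same line, which the labels assign to the strains C57BL/6+C57BL/6J+CBA, and the time of harvest is not given in the sources used here. Each group has 3 libraries of poly(A)-selected RNA and 1 library of total RNA freed of ribosomal RNA (rRNA-depleted). Nothing in the labels ties the libraries of a group to separate cultures. The p-values thus reflect only how these libraries vary, and that variation may be technical.

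The target Sfpq read 56.8, 60.8 and 73.0 RPKM in Luc poly(A) RNA. It read 3.98, 4.75 and 6.47 RPKM in Sfpq poly(A) RNA (7.97% of the Luc mean), and 30.8 and 4.43 RPKM in the rRNA-depleted pair. Sfpq had 2 transcript rows, and these values are of the row with the highest mean. By its RefSeq identifier that row is a noncoding transcript, and the other row is not reported here. All 9 neuroblast markers were present, with summed levels of 574 to 734 RPKM in Luc and 635 to 705 in Sfpq libraries. Every fibroblast, glial and immune marker found stayed under 1 RPKM in the poly(A) libraries, with summed levels of at most 1.23, 1.78 and 0.0943 RPKM. The defining genes Lum, Mog and Lyz2 were listed at 0 in all of these libraries. Luc replicate 3 stood apart from the other Luc libraries, with correlations of 0.985 and 0.979 over genes against 0.996 between the other two. Absolute depth is unknown. Relative depth ran from 0.628 (Sfpq replicate 1) to 1.28 (Luc replicate 3) times that of Luc replicate 1 in poly(A) RNA, and was 2.64 (Luc) and 2.65 (Sfpq) times in rRNA-depleted RNA.

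Complex I takes electrons from NADH and complex II takes them from succinate. Both pass them to ubiquinone, complex III hands them on to cytochrome c, and complex IV gives them to oxygen. Complexes I, III and IV pump protons as they do so, and complex V, the ATP synthase, lets the protons flow back to make ATP. Neurons draw most of their ATP from this pathway. The mitochondrial genome encodes a small part of every complex except complex II, and nuclear genes encode the rest. The members described here lie in the nuclear genome. Several subunits of complex IV, and subunit c of complex V, come from 2 or more nuclear genes with different tissue patterns.

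Transcripts of the members shifted slightly downward in Sfpq cells, and a few genes moved much more than the rest. In poly(A) RNA 23 of the 91 tested members were lower and 6 were higher (limma, Benjamini-Hochberg adjusted p under 0.05 over all genes tested), and 62 did not pass. The lower calls were 25.3% of the members, where 18.6% of all 11727 tested genes were called lower. Higher calls were 6.59% of the members, against 21.3% of all genes. Of the called members, 79.3% were thus lower, and this share was 64.0% under quantile normalization, which called 16 lower and 9 higher. The count of lower members is therefore near its background, and the one-sided split came with few higher calls. The median log2 fold change was -0.21 for the members and 0.05 for all genes, and 70.3% of members had values below 0 against 45.1% of all genes. Quantile normalization brought the members' median to -0.10 and left that of all genes at 0.06. The members were also far more abundant, with a median Luc level of 132 RPKM against 9.2 RPKM for all genes tested. The 16 tested genes of glycolysis, at a median of 157 RPKM, had a median log2 fold change of -0.20. Whether the shift goes with abundance was not tested. Each library was also set against the Luc mean of each gene, which by itself holds the Luc libraries near 0. On the log2 scale the median over the members lay between -0.04 and 0.04 in the Luc libraries. In the Sfpq libraries it lay between -0.22 and -0.19. The median over all genes lay between -0.03 and 0.05 in Luc and between -0.0056 and 0.083 in Sfpq libraries. The members' medians thus did not overlap between the groups, which is a description and no test. These are bulk samples, in which fewer cells of a type and less RNA per cell cannot be told apart.

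All 3 Sfpq libraries lay below all 3 Luc libraries for 38 members (24.7% of all genes did) and above them for 9 (28.2% of all genes), and the groups overlapped for 44. Without Luc replicate 3 the test called 33 members lower and 8 higher. Without Sfpq replicate 2 or 3 it called 15 or 13 lower, with 4 higher in each case. Of the 29 calls, 15 held when each library was left out in turn.

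**Figure D1:**
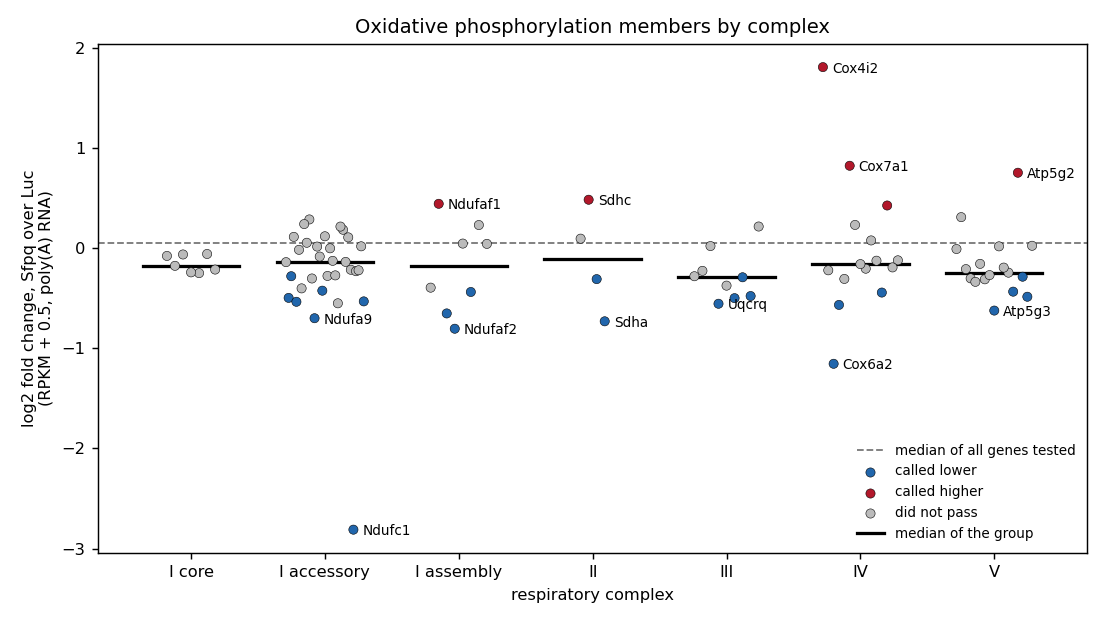
Each point is 1 tested member, placed by complex, with its log2 fold change of Sfpq over Luc in poly(A) RNA (RPKM + 0.5, 3 libraries per group) on the vertical axis. Coloured points passed the test, black bars are medians of the group and the dashed line is the median of all genes. Most grey points lie near or under the dashed line, while Ndufc1 (-2.81) and Cox4i2 (1.81) stand far from their complexes.

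The median lay below that of all genes in every complex. It was -0.29 in complex III, -0.25 in complex V, -0.18 for the core subunits of complex I, -0.18 for its assembly factors, -0.16 in complex IV, -0.14 for the accessory subunits of complex I and -0.11 in complex II. Under quantile normalization 6 of the 7 medians were smaller by over 1.5 times: -0.19 in complex III, -0.10 in complex V, -0.044 for the core subunits, -0.068 in complex IV, -0.058 for the accessory subunits and -0.019 in complex II. Single libraries moved the smaller medians as well: that of the core subunits was -0.095 without Luc replicate 1, -0.10 without Luc replicate 3 and -0.11 without Sfpq replicate 2, and that of the accessory subunits was -0.22 without Luc replicate 3. Without Luc replicate 3 the median of complex V was -0.16, and without Sfpq replicate 1 that of the assembly factors was -0.10.

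Promoters of respiratory chain genes are known for sites of the factors NRF1, GABP (of the ETS family) and YY1. RefSeq promoter windows (build GRCm38.p6, 250 bases before to 50 after the start) were found for 76 members, 5 of which had 2 windows. The 81 windows were searched on both strands for the letters of 5 motifs, none of which contains another. The NRF1 motif GCGCATGC stood in 14.8% of the windows, against 2.71% of all 32851. The ETS motif CCGGAAG stood in 23.5% against 8.86%, and the YY1 motif AAGATGGC in 13.6% against 2.75%. CCAAT stood in 43.2% against 37.4%, and TATAAA in 11.1% against 13.6%. Called and uncalled members held these at shares of 18.2% and 13.6% for NRF1, 18.2% and 25.4% for ETS, and 13.6% and 13.6% for YY1. CCAAT stood in 59.1% of 22 windows of called members and 37.3% of 59 windows of the others. These are matches of letters, given as a description.

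Complex I held the largest change of any member. Ndufc1, a small accessory subunit that spans the membrane, fell to 14.1% of its Luc level. It read 223, 195.9 and 188 RPKM in the Luc poly(A) libraries and 34.1, 24.6 and 27.1 RPKM in the Sfpq libraries. The groups lay far apart, with a log2 fold change of -2.81 (SE 0.13, limma adjusted p = 1.56e-06). The level in RNA depleted of rRNA went from 95.2 to 10.7 RPKM, a log2 ratio of -3.09. Ndufc1 was the 9th most abundant complex I subunit by its mean in Luc libraries and the 37th in Sfpq libraries, where only Ndufa4l2 was lower. The call held under all 15 alternatives. Its promoter window is at chr3:51408906-51409205 on the minus strand (GRCm38.p6) and is shown since no other member fell as far. Capitals mark the YY1 motif from base 23 after the start, the start being base 1:
Ndufc1: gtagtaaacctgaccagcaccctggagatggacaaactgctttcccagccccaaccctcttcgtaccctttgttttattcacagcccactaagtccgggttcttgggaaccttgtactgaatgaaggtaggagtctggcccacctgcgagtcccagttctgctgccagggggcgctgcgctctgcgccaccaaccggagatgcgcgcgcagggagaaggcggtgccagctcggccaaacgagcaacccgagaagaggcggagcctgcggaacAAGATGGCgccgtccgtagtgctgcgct

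The genes beside Ndufc1 were read out next, since the tables hold them too, and this choice was made after the values of Ndufc1 were seen. In the order of the RefSeq table Ndufc1 lies between Mgarp, which encodes a mitochondrial protein and is read from the same strand further downstream, and Naa15, which encodes a subunit of an N-terminal acetyltransferase and is read the other way. Mgarp rose as Ndufc1 fell. Its levels were 5.07, 5.10 and 4.14 RPKM in Luc and 27.3, 24.2 and 24.6 RPKM in Sfpq libraries, a log2 fold change of 2.30 (SE 0.12, limma adjusted p = 1.87e-06), and 2.87 and 10.9 RPKM in rRNA-depleted RNA. The level of Ndufc1 over that of Mgarp was 44.0, 38.4 and 45.5 under Luc and 1.25, 1.02 and 1.10 under Sfpq knockdown, and it went from 33.2 to 0.985 in rRNA-depleted RNA. The neighbours on 1 strand thus stood at about the same level per length in Sfpq cells. Naa15 read 12.3, 9.13 and 15.6 RPKM in Luc and 14.6, 14.1 and 14.2 RPKM in Sfpq libraries and did not pass (0.24, limma adjusted p = 0.292).

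**Figure D2:**
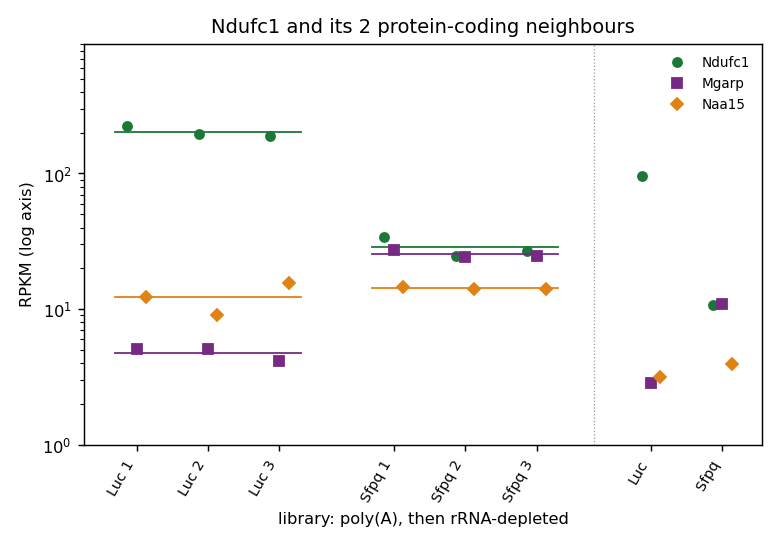
RPKM on a log axis for Ndufc1 and the protein-coding genes on each side of it, in each poly(A) library and in the 2 rRNA-depleted libraries (right of the dotted line). Lines are means of 3 libraries. Ndufc1 drops from between 188 and 223 RPKM to between 24.6 and 34.1, Mgarp climbs to between 24.2 and 27.3, and Naa15 overlaps between the groups.

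The core subunits of complex I, which carry the flavin and the iron-sulphur clusters, had no call. None of the 7 passed, where 18.6% of all genes were called lower and 21.3% higher. The groups overlapped for all 7, as they did for 5525 of all 11727 genes tested. All 7 log2 fold changes were below 0, from -0.25 (Ndufs7) to -0.06 (Ndufs1). Their median (-0.18) was near that of the accessory subunits (-0.14). At an unadjusted limma p under 0.05, 0 of the 7 core subunits passed, and limma without trend also called 0. With Luc replicate 3 left out, 2 of the 7 were called lower. Ndufs1 changed sign there (0.092) and without Sfpq replicate 1 (0.016).

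Among the 31 tested accessory subunits, which surround that core and stabilise it, 7 were lower, none was higher and 24 did not pass. Their lower share of 22.6% was near the 18.6% of all genes, of which 21.3% were called higher. At an unadjusted limma p under 0.05, 14 of the 31 were lower and 1 was higher, and limma without trend called 6 lower and 0 higher. The Sfpq libraries all lay below the Luc libraries for 15 of the 31 (48.4%, against 24.7% of all genes). After Ndufc1 the largest fall was in Ndufa9, which sits near the ubiquinone site. Its levels were 72.7, 68.6 and 97.9 RPKM in Luc and 41.0, 51.7 and 53.0 RPKM in Sfpq libraries (-0.70, SE 0.16, limma adjusted p = 0.00647). Ndufb4, a membrane arm subunit, went from 298, 332 and 295 RPKM to 224, 209 and 205 RPKM (-0.53, SE 0.10, limma adjusted p = 0.00241). Ndufa8, a subunit on the side of the intermembrane space, had the tightest groups of these, at 119, 127 and 122 RPKM against 85.7, 86.6 and 87.2 RPKM (-0.50, SE 0.09, limma adjusted p = 0.00202).

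The remaining accessory calls were small. Ndufb6 (-0.43) was not called without Sfpq replicate 3 (-0.37). Ndufb9 (-0.28) was called only just, at a limma adjusted p of 0.0479, and of the 6 fits without 1 library it was called only in the one without Luc replicate 3 (-0.34), with values of -0.31 to -0.23 in the other 5. The member called Ndufs5-ps (-0.54) is by its name a pseudogene of Ndufs5 (-0.27, not passed), and reads of such copies may have been split between them. It was not called without Sfpq replicate 1 (-0.54) or 3 (-0.43). Its level in Luc cells was 7.31 to 10.7 RPKM in poly(A) RNA and 44.3 RPKM in rRNA-depleted RNA. It was the only tested member with a higher level in the latter. Ndufa4, the most abundant of the group (1139, 1120 and 1283 RPKM in Luc, 1072, 896 and 955 RPKM in Sfpq libraries), is today counted with complex IV and did not pass (-0.28). Its relative Ndufa4l2 stayed at or under 0.615 RPKM. Ndufa11 had the highest value (0.29, not passed). Without Luc replicate 3 the count for the group was 12 lower and 1 higher, and without Sfpq replicate 3 it was 4 lower.

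Assembly factors of complex I act while the complex is built and are not part of it. Of the 8 Ndufaf genes, 3 (37.5%) were lower, 1 (12.5%) was higher and 4 did not pass. Over all genes, 18.6% were called lower and 21.3% higher. Ndufaf2, a chaperone that holds a late intermediate, read 27.8, 27.9 and 42.3 RPKM in Luc and 18.3, 18.1 and 18.0 RPKM in Sfpq libraries (-0.81, SE 0.16, limma adjusted p = 0.00342). The nearly equal Sfpq values lie below every Luc value, and the rRNA-depleted ratio was -1.06. Ndufaf4 fell (-0.65, limma adjusted p = 0.00587) and so did Ndufaf7, a methyltransferase (-0.44), though the latter was not called without Sfpq replicate 2 (-0.40) or 3 (-0.41). Ndufaf1, which helps to build the membrane arm, was higher at 9.47, 10.0 and 10.8 RPKM against 7.06, 6.25 and 8.80 RPKM (0.44, limma adjusted p = 0.0276). Leaving out 1 library ended that call in 5 of 6 cases, with values of 0.34 to 0.48, and it held without Luc replicate 3 (0.57). Ndufaf3, the most abundant of these factors, did not pass (0.23).

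Complex II, which is also an enzyme of the tricarboxylic acid cycle, was split. Sdha, the flavin-bearing subunit that oxidises succinate, fell from 91.2, 84.4 and 96.2 RPKM to 48.9, 55.1 and 59.4 RPKM. The groups did not overlap, and the change was -0.73 (SE 0.11, limma adjusted p = 0.000743) in poly(A) RNA, with a ratio of -0.58 in rRNA-depleted RNA. Sdhb, the iron-sulphur subunit, was lower by less (-0.31, limma adjusted p = 0.0350) and, of the fits without 1 library, kept its call only in that without Luc replicate 3 (-0.29), with values of -0.35 to -0.24 in the other 5 fits. Sdhc, 1 of 2 membrane anchors, was higher at 121, 108 and 111 RPKM against 81.5, 94.1 and 68.6 RPKM (0.48, SE 0.13, limma adjusted p = 0.0140). It was not called without Sfpq replicate 1 (0.43), and its rRNA-depleted ratio was only 0.11. Sdhd, the other anchor, did not pass (0.09).

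The start of Sdha lies next to that of Ccdc127, with a gap of 76 bases. Ccdc127 is read the other way and also fell, from 13.0, 13.1 and 19.8 RPKM to 6.97, 8.19 and 9.25 RPKM (-0.85, limma adjusted p = 0.00436). With gaps of any size, 9 lower members had a tested neighbour of this layout, where the RefSeq table gives both strands. Of these neighbours 4 were lower, 1 was higher and 4 did not pass. The other lower ones were Ercc8 beside Ndufaf2 (-0.57, a gap of 58 bases), Zmat5 beside Uqcr10 (-1.10, 311 bases) and, much farther off, Fstl1 beside Ndufb4 (-1.74, 122686 bases). The higher one was Wdr77 beside Atp5pb (0.32, 234 bases). Those that did not pass were Kin (40 bases), Magt1 (3897 bases), Akap3 (3953 bases) and Naa15 (7060 bases). These counts were made after the values were seen. Of the neighbours on either side of lower members that were tested, 8 were lower, 7 were higher and 15 did not pass. Over all genes tested, 18.6% were called lower and 21.3% higher. The Sdha window, at chr13:74350191-74350490 on the minus strand (GRCm38.p6), is shown as that of the complex II gene that fell the most. Capitals mark its only motif match, a CCAAT box read on the other strand as ATTGG, from base 185 before the start:
Sdha: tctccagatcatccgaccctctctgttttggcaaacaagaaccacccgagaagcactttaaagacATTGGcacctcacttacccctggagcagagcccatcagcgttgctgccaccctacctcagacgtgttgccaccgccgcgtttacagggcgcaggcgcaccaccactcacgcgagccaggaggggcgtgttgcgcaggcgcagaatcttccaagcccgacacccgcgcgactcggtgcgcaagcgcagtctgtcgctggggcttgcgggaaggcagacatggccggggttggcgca

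Complex III had the lowest median of the 5 complexes in poly(A) RNA (-0.29), where 4 of its 9 members (44.4%) were lower and 5 did not pass. Over all genes, 18.6% were called lower and 21.3% higher. In rRNA-depleted RNA the median of complex III, at -0.27, lay above that of complex V (-0.41). Without Luc replicate 2, 1 member was called higher. At an unadjusted limma p under 0.05 the counts were 5 lower and 0 higher, and limma without trend called 3 and 0. Uqcrq, a small subunit next to cytochrome b, was the second most abundant member of all in Luc cells. It fell from 1238, 1412 and 1186 RPKM to 823, 854 and 928 RPKM (-0.56, SE 0.11, limma adjusted p = 0.00343). Cyc1, the cytochrome that hands electrons to cytochrome c, fell from 330.2, 371 and 395 RPKM to 242, 268 and 275 RPKM (-0.48, SE 0.11, limma adjusted p = 0.00666). Both held without each library in turn. Uqcrc2, a core protein, was lower (-0.29, limma adjusted p = 0.0342), but only the fits without Luc replicate 2 (-0.34) and 3 (-0.27) kept it, the others giving -0.32 to -0.27.

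Uqcr10 was called at the edge of the threshold (-0.50, limma adjusted p = 0.0490) although its groups overlapped. It read 179.8, 198 and 117 RPKM in Luc and 109, 111 and 121 RPKM in Sfpq libraries, so Luc replicate 3 lay inside the Sfpq range, and the call held only without that library (-0.73). The other 5 fits gave -0.55 to -0.35. In rRNA-depleted RNA it read 159 and 80.9 RPKM, a ratio of -0.97 and the lowest of complex III. Uqcr11 had the highest value (0.21, not passed). The count of lower members in complex III was 2 without Luc replicate 1 or any 1 of the Sfpq libraries.

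In complex IV some of the tissue isoforms moved, while their main isoforms did not pass. Of 15 tested members 3 were lower, 3 were higher and 9 did not pass, shares near those of all genes (18.6% lower and 21.3% higher). Subunit 4 regulates the enzyme and comes from Cox4i1 in most tissues and from Cox4i2 in the lung and in cells short of oxygen. Cox4i2 rose from 0.966, 1.55 and 1.34 RPKM to 6.42, 5.55 and 5.12 RPKM, a 4.44-fold higher mean. The groups were well apart (log2 fold change 1.81, SE 0.15, limma adjusted p = 2.88e-05), and rRNA-depleted RNA read 0.841 and 3.22 RPKM. Cox4i1 read 866, 818 and 869 RPKM in Luc and 733, 746 and 733 RPKM in Sfpq libraries and did not pass (-0.21). Even after its rise Cox4i2 made up 0.693% to 0.869% of the summed Cox4 level in Sfpq libraries, against 0.112% to 0.189% in Luc libraries.

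Subunit 6a has a general form, Cox6a1, and a form of heart and skeletal muscle, Cox6a2. Cox6a2 fell from 5.14, 7.71 and 5.01 RPKM to 1.60, 2.85 and 2.79 RPKM (-1.15, SE 0.22, limma adjusted p = 0.00270), and from 5.35 to 1.25 RPKM in rRNA-depleted RNA. Cox6a1 made up 98.8% to 99.1% of the pair in Luc libraries and did not pass (0.08, and -0.18 without Luc replicate 3). Cox7a1, the muscle form of subunit 7a, went the other way. It rose from 2.26, 1.78 and 1.95 RPKM to 4.49, 3.48 and 3.77 RPKM (0.82, SE 0.13, limma adjusted p = 0.00128), but it read 1.37 and 1.06 RPKM in rRNA-depleted RNA. Its general form Cox7a2 did not pass (-0.16, and 0.028 without Sfpq replicate 2).

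The 2 muscle forms thus moved in opposite directions. Markers of heart and skeletal muscle were low in poly(A) RNA: 4 of 6 stayed under 1 RPKM and Myod1 was listed at 0. The summed level was 1.84 to 2.15 RPKM in Luc and 2.47 to 3.92 RPKM in Sfpq libraries. It came chiefly from Tnnt2 (0.975 to 1.11 and 2.16 to 3.00 RPKM) and Acta1 (0.697 to 1.13 and 0.318 to 1.00 RPKM). Tnnt2 was called higher (1.05, limma adjusted p = 0.000423) and Acta1 did not pass (-0.16). The part of these markers in the isoform changes was not tested. Cox7a2l, which joins complexes III and IV into larger assemblies, was higher at 80.7, 86.5 and 86.4 RPKM against 57.8, 57.0 and 75.3 RPKM (0.42, limma adjusted p = 0.0221, and 0.48 in rRNA-depleted RNA). Its call held without Luc replicate 3 (0.55) and Sfpq replicate 1 (0.46), and the other 4 fits gave 0.35 to 0.41.

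Among the other subunits Cox6b1 fell from 173, 168 and 162 RPKM to 119, 121 and 130.1 RPKM (-0.44, SE 0.09, limma adjusted p = 0.00461). Its testis form Cox6b2 was listed at 0 in all 6 poly(A) libraries, as were Cox8b and Cox8c, the relatives of Cox8a (-0.22, not passed). Cox7b was lower (-0.57, limma adjusted p = 0.0453), with Luc values of 65.0, 52.9 and 99.6 RPKM and Sfpq values of 44.6, 48.0 and 48.7 RPKM. The Luc libraries vary far more than the Sfpq ones, and the call held only without Luc replicate 2 (-0.77) or 3 (-0.31), the others giving -0.62 to -0.53.

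**Figure D3:**
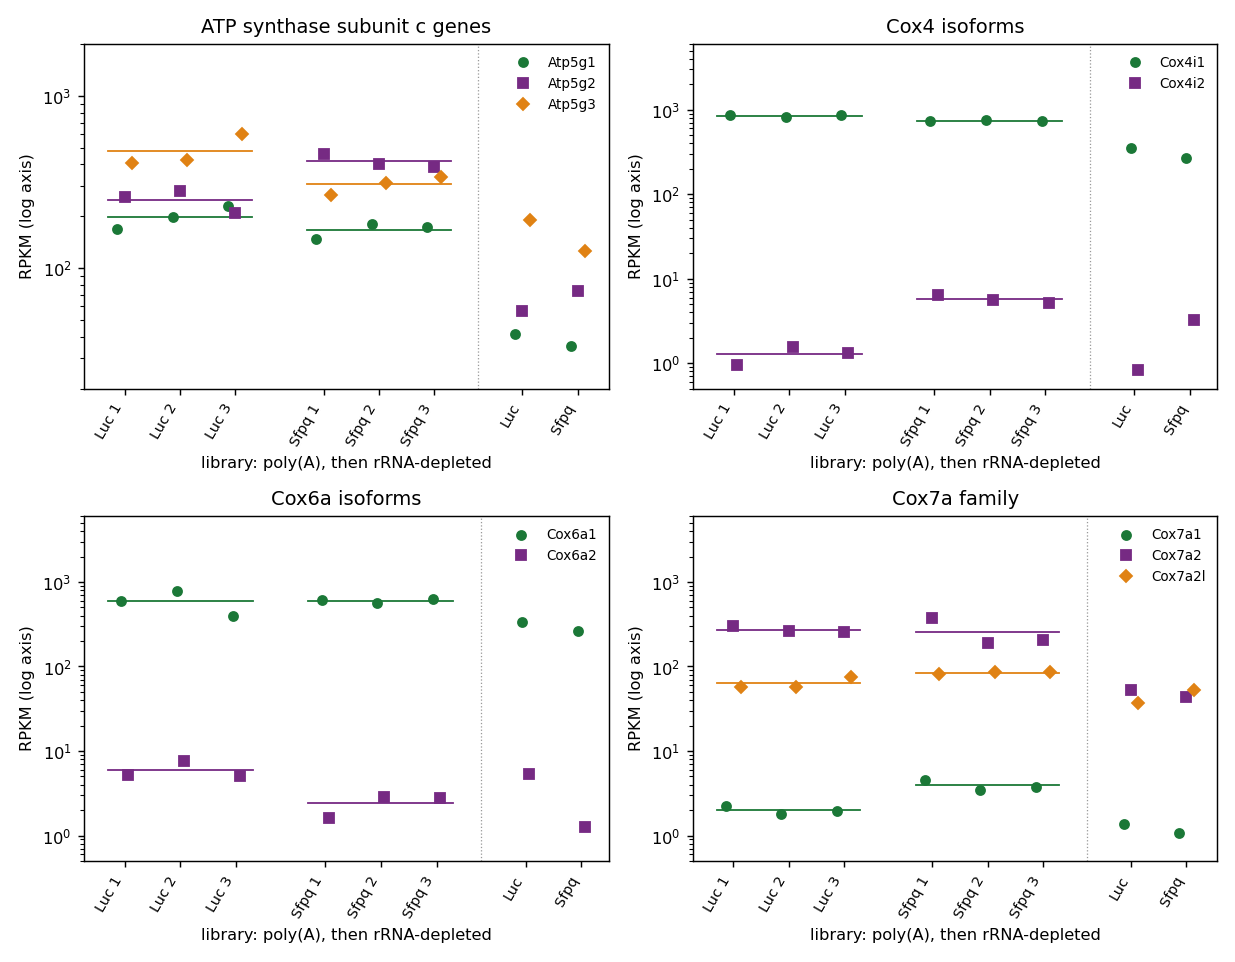
RPKM on a log axis for 4 sets of genes that encode the same or related subunits, in each poly(A) library and in the 2 rRNA-depleted libraries (right of the dotted line). Lines are means of 3 libraries. Cox4i2 and Cox7a1 rise and Cox6a2 falls in poly(A) RNA at levels far under those of their main forms. Atp5g2 and Atp5g3 trade places in the Sfpq poly(A) libraries but not in the rRNA-depleted one.

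Complex V had 4 lower members (23.5%), 1 higher (5.88%) and 12 that did not pass, out of 17. The lower share was near the 18.6% of all genes, of which 21.3% were called higher. In complex V the lower count was 1 without Sfpq replicate 1. It was 2 without Luc replicate 1 or Sfpq replicate 2 or 3, and 6 without Luc replicate 3. Subunit c forms the rotor ring of the ATP synthase, and Atp5g1, Atp5g2 and Atp5g3 encode the same mature subunit with different import sequences. Atp5g2 rose from 258, 279 and 209 RPKM to 461, 402 and 389 RPKM (0.75, SE 0.13, limma adjusted p = 0.00174). Atp5g3 fell from 407, 426 and 599.7 RPKM to 267, 313 and 338 RPKM (-0.62, SE 0.16, limma adjusted p = 0.0126), a call that ended without Sfpq replicate 1 (-0.53). Atp5g1 did not pass (-0.25). Atp5g3 was the leading gene of the set in each Luc library, with 47.2% to 57.7% of the summed level, and Atp5g2 in each Sfpq library, with 43.1% to 52.7%. The sum itself overlapped between the groups, at 835, 902 and 1039 RPKM in Luc and 875, 896 and 900.5 RPKM in Sfpq libraries. In rRNA-depleted RNA the share of Atp5g2 went from 19.6% to 31.3%, and Atp5g3 stayed the leading gene.

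The windows of these 2 genes are set side by side because the genes moved in opposite directions. Atp5g2 is at chr15:102670998-102671297 and Atp5g3 at chr2:73911277-73911576, both on the minus strand (GRCm38.p6). Capitals mark the NRF1 letters before the start of Atp5g2, which match from base 42 as printed and from base 40 on the other strand, and the CCAAT box from base 72 before that of Atp5g3. No other searched motif matched in either window:
Atp5g2: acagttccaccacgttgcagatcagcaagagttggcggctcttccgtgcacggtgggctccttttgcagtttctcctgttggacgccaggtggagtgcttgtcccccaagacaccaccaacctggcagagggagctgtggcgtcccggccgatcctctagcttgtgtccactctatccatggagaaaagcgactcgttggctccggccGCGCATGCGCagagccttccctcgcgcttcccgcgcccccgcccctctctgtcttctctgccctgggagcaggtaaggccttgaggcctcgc
Atp5g3: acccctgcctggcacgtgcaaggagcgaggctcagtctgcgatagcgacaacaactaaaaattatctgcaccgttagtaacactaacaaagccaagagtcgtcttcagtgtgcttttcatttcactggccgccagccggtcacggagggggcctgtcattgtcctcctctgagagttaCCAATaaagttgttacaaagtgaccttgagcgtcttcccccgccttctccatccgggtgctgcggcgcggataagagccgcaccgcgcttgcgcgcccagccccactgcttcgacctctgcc

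Atp5b, the catalytic beta subunit and the most abundant member in both groups, fell from 1683, 1754 and 1661 RPKM to 1152, 1253 and 1236 RPKM (-0.49, SE 0.10, limma adjusted p = 0.00369). Its partner Atp5a1 in the catalytic head did not pass (-0.16). Atp5pb, of the stalk that holds the head still, was lower (-0.44, limma adjusted p = 0.0289). The fits without Luc replicate 2 (-0.57) and 3 (-0.31) kept that call and the others gave -0.47 to -0.38. Atp5c1, the turning central stalk, was called only just (-0.29, limma adjusted p = 0.0453), and only the fit without Luc replicate 3 (-0.21) kept it, with -0.33 to -0.27 in the others.

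RNA depleted of rRNA also holds transcripts without a poly(A) tail and unspliced ones, and with 1 library per group it allowed no test. The members' median log2 ratio of Sfpq over Luc was -0.23, against -0.02 for the 11386 genes that averaged 0.5 RPKM or more there. Of the 91 members with such a mean, 73 had a ratio below 0 (80.2%, and 51.7% of all genes). Only Ndufc1, Ndufaf2 and Cox6a2 had ratios of -1 or less (5.18% of all genes had), and only Cox4i2 had one of 1 or more (1.65% of all genes). By complex the median was -0.41 in complex V, -0.27 in complex III, -0.26 in complex IV, -0.22 for accessory subunits, -0.20 in complex II, -0.08 for core subunits and -0.01 for assembly factors. The medians of complexes II, IV and V and the accessory subunits thus lay lower, and those of core subunits and assembly factors higher, than in poly(A) RNA. The median of all genes also lay lower, at -0.02 against 0.05 in poly(A) RNA. Differences of about that size, as for complex II and the accessory subunits, are therefore not particular to a complex.

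Across the 91 members the poly(A) log2 fold change and the rRNA-depleted log2 ratio had a Pearson correlation of 0.88 and a Spearman correlation of 0.75, and without Ndufc1 Pearson's value was 0.81. Over 11208 genes it was 0.94. These are correlations across genes, which share libraries and are not independent replicates. Signs matched for 78 of the 91, and Cox7a1 was the only called member whose signs differed, with 0.82 in poly(A) and -0.26 in rRNA-depleted RNA. Levels also differed between preparations: in Luc cells the members' median log2 ratio of rRNA-depleted over poly(A) level was -1.24, against -0.46 over all genes, and it ran down to -4.46 in Atp5k, a small subunit of complex V. The 2 preparations were scaled separately, so these level ratios are not tested.

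**Figure D4:**
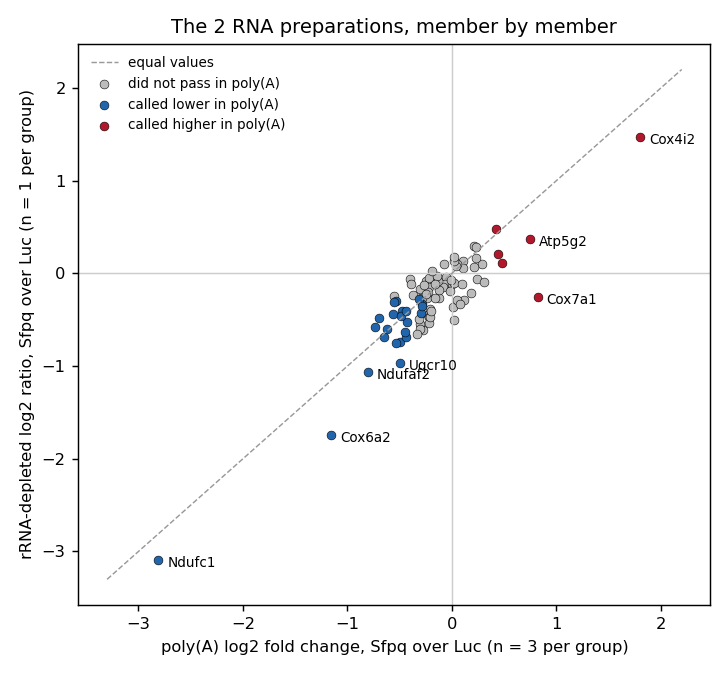
Each point is a member, with its poly(A) log2 fold change (3 libraries per group) on the horizontal axis and its rRNA-depleted log2 ratio (1 library per group) on the vertical axis, both Sfpq over Luc. The dashed line marks equal values. Ndufc1 (-2.81 and -3.09) and Cox4i2 lie nearer the line than Cox6a2 (-1.16 and -1.74) and Cox7a1, which lie under it.

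Genes around the complexes were described from lists of other pathway members. Their counts are read against the 18.6% of all genes called lower and the 21.3% called higher. Outside the Nduf family, 2 of 9 factors of complex I assembly (22.2%) were lower and none higher, led by Ecsit, a factor of the membrane arm, at 17.0, 18.2 and 18.9 RPKM in Luc and 9.64, 11.8 and 10.7 RPKM in Sfpq libraries (-0.73, limma adjusted p = 0.000869). The median of that list was -0.16, and without Luc replicate 3 it turned to 0.056 with 1 gene called higher. In complex III assembly 3 of 6 were lower (median -0.24), led by Uqcc3 (-0.45). In complex IV assembly 4 of 23 (17.4%) were lower, a share near that of all genes, and 1 was higher (median -0.22). Cmc1, which acts on the mitochondrially encoded core, had the largest fall there, from 14.0, 12.8 and 17.2 RPKM to 6.17, 4.97 and 5.19 RPKM (-1.35, SE 0.14, limma adjusted p = 8.87e-05). Pet100 was higher (0.39), with a call that held only without Luc replicate 3 (0.47) or Sfpq replicate 1 (0.41). Sdhaf1 (0.48) was the only call among 4 factors of complex II, and Atpaf1, a chaperone of the catalytic head of complex V, the only one of 4 there, at 6.75, 4.86 and 7.69 RPKM in Luc and 12.3, 11.3 and 11.9 RPKM in Sfpq libraries (0.85, limma adjusted p = 0.00229). No call was made among 7 genes of cytochrome c and ubiquinone-linked dehydrogenases (median -0.26). At an unadjusted limma p under 0.05, 3 of these were lower and 0 higher, and limma without trend called 1 lower. In the lists with no higher call, for complex I, complex III and the cycle described next, 0 genes were higher at an unadjusted limma p under 0.05 or without trend. Without Luc replicate 3 complex IV assembly had 8 lower and 4 higher genes, and without Sfpq replicate 1 it had 2 and 1. Complex III assembly had 1 lower gene without Luc replicate 1 or any 1 of the Sfpq libraries, and 1 higher gene without Luc replicate 3.

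The tricarboxylic acid cycle feeds NADH and succinate to the chain. Of its 14 genes 5 (35.7%, against 18.6% of all genes) were lower, none was higher and 9 did not pass (median -0.30). Suclg2, a subunit of the enzyme that makes succinate, fell from 23.3, 22.9 and 29.6 RPKM to 6.29, 8.98 and 9.02 RPKM (-1.59, SE 0.16, limma adjusted p = 8.35e-05), and from 13.2 to 3.68 RPKM in rRNA-depleted RNA. Idh2, a mitochondrial isocitrate dehydrogenase named, like Suclg2, after its values were seen, fell from 62.7, 60.2 and 55.1 RPKM to 23.7, 24.7 and 24.6 RPKM (-1.27, SE 0.10, limma adjusted p = 1.58e-05). In glycolysis 3 of 16 genes (18.8%) were lower, the share found over all genes (18.6%), led by Pfkp (-0.82), a form of its rate-setting enzyme. The median of the glycolysis list was still -0.20, near the -0.21 of the members, and 75.0% of its values were below 0. The 1 higher gene there was Aldoc (0.45), whose call ended without Luc replicate 1 (0.43) or 3 (0.40) or Sfpq replicate 1 (0.42) or 3 (0.32). Glycolysis had 8 lower genes and 0 higher without Luc replicate 3. In the outer membrane and import list 4 of 15 (26.7%) were lower, led by the channel Timm23 (-0.90), and Tomm7 (0.54) was higher (median -0.098). Without Luc replicate 2 that list had 6 lower genes.

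Among 12 tested nuclear regulators of mitochondrial genes, 1 was lower and 2 were higher (median 0.03). Ppargc1b, a coactivator of respiratory genes, fell from 1.79, 2.32 and 1.65 RPKM to 0.288, 0.358 and 0.273 RPKM (-1.58, SE 0.14, limma adjusted p = 4.15e-05). Its relative Ppargc1a was near 0 in every library, at or under 0.00639 RPKM. Gabpb2, a beta subunit of the factor GABP, rose from 2.80, 2.79 and 3.13 RPKM to 3.83, 5.04 and 5.31 RPKM (0.61, limma adjusted p = 0.00705). The other higher call was Nrf1 (0.36, limma adjusted p = 0.0274), named after its values were seen, and it ended without any 1 library other than Luc replicate 3 (0.36) or Sfpq replicate 1 (0.43). The list had 2 lower and 4 higher genes without Luc replicate 3.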

How the data were processed

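The authors deposited 1 table of RPKM values per library, whose rows are RefSeq transcripts, per the file headers. TopHat2 2.0.10 and the mouse build mm9 are named in the submitters' processing notes. How RPKM was computed, with what filters, and how strand and reads with several matches were handled, is not given in the sources used here. Of 30978 rows, 30507 (98.5%) were named through a RefSeq table of assembly GRCm38.p6. It differs from the authors' build and served for names, gene order and gaps between neighbours only. The row with the highest mean over all 8 libraries stood for each symbol, and 10 members had more than 1 row.

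Groups and replicate numbers came from the sample titles. The description of Sfpq poly(A) replicate 2 disagrees with its title on the number, and the title was followed. Chromatin immunoprecipitation of RNA polymerase II, also named in the labels, is not analysed here.

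The comparison of poly(A) libraries (3 per group) used log2(RPKM + 0.5) and limma (version 3.58.1, R 4.3.3) with its trended prior, over all 11727 genes averaging 0.5 RPKM or more. Calls were made at an adjusted p (Benjamini-Hochberg, over all of these genes) under 0.05. Fold changes are on that log2 scale, which understates changes of low genes. The rRNA-depleted libraries gave log2 ratios on the same scale with no test. RPKM holds no read counts, so no counting interval can be given. Relative depth came from ratios of low values, of which 84.3% to 89.8% were ratios of whole numbers no larger than 20 (tolerance 0.002, natural log). Simulated data with known changes were used to test the limma fit.

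The members, the lists of other pathway genes and the cell type markers were chosen with earlier results of these data known. The text names Sfpq, every called member, the most abundant member and the lowest and highest value of each group, the isoform sets, members with an rRNA-depleted ratio past 1, and the largest call in each direction of each pathway list. Any further gene was picked after seeing its values, and a few genes, some of them under this rule, are not reported here. Coa1 and Cd68 were not found, and Usmg5 is the member Atp5md. Alternatives were pseudocounts of 0.1 and 1, no filter, a minimum of 2 RPKM, median-ratio scaling, quantile normalization, the mean of all rows, limma without trend, a replicate block and leaving out each library. Regroupings without Ndufs5-ps and with Ndufa4 in complex IV, were added after the data were seen. Tables and figures were made in Python 3.11.15 (pandas 2.3.3, numpy 2.4.6, scipy 1.17.1).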

Additional observations from a re-analysis of the deposited data

Results flagged for a closer look

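Cox7a1, the muscle form of subunit 7a of complex IV, went in opposite directions in the 2 preparations. In poly(A) RNA every Sfpq library (3.48 to 4.49 RPKM) lay above every Luc library (1.78 to 2.26 RPKM). In rRNA-depleted RNA the Sfpq library was the lower one (1.06 against 1.37 RPKM), a log2 ratio of -0.26. Both of these levels are low, and no counting interval can be given for them. The difference between the preparations was not tested, since rRNA-depleted RNA has 1 library per group.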

How the results depend on the processing

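All 15 alternatives kept the calls of 10 members (Ndufa8, Ndufb4, Ndufc1, Sdha, Cyc1, Uqcrq, Cox4i2, Cox6b1, Cox7a1 and Atp5g2), and 14 of the 29 calls ended without at least 1 library. Leaving out each library gave 13 to 33 lower and 4 to 8 higher members, and 1673 to 2645 lower and 1546 to 3621 higher genes in all. It gave medians of -0.17 to -0.095 for core subunits of complex I, -0.22 to -0.13 for accessory subunits and -0.27 to -0.16 in complex V. Of the 91 tested members 21 changed sign there, none of them called, and among those described above they were Ndufs1 (-0.18 to 0.092), Cox6a1 (-0.18 to 0.31) and Cox7a2 (-0.47 to 0.028). Without a filter on low values, which tests all 95 members among 23553 genes, 11 members were lower and 3 higher. Quantile normalization called 16 lower and 9 higher and gave medians of -0.044 for core and -0.058 for accessory subunits of complex I, -0.019 in complex II, -0.19 in complex III, -0.068 in complex IV and -0.10 in complex V. The cause was not tested. With median-ratio scaling 26 members were lower and 6 higher, and the medians of core subunits and of complex II were -0.22 and -0.15, with -0.18 for complex II in rRNA-depleted RNA. A pseudocount of 0.1 moved the rRNA-depleted median of complex IV to -0.33. Limma without trend called 19 members lower. Whether replicate numbers pair the libraries cannot be settled from 3 libraries per group. Same-numbered libraries had correlations of deviations of 0.33, -0.04 and 0.16, and differently numbered ones ran from -0.28 to 0.17. With the replicate block 26 members were lower and 6 higher, 27 of them among the 29. No member's result rests on absolute depth, which is unknown.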
